A study of Homo sapiens with 6 samples.

Results

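Expression of 9 genes was followed: GDF15, FGF21, INHBE, STC1, STC2, ADM, ADM2, VEGFA and VEGFB, which encode secreted hormones and cytokines known from cells under stress. They were chosen by name, matched by symbol to 9 of the 60671 Ensembl gene IDs in the count files, and all 9 were tested. RNA was sequenced from NCI-H69, an established human small cell lung cancer line labelled WT, after 48 h with either the solvent control DMSO (3 libraries) or GNF5, an inhibitor of the ABL kinase (3 libraries). The GNF5 dose is 20 µM in each sample's label, while the treatment protocol gives the same figure in millimolar. One cell line was used, and the labels leave unsaid whether replicates came from separate cultures, so the p-values reflect the spread among these 6 libraries, which may be technical.

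The factors act through different receptors. GDF15 is a distant member of the TGF-beta family that signals through GFRAL with RET in the brainstem, and FGF21 is an endocrine fibroblast growth factor that needs the co-receptor KLB beside FGFR1. INHBE encodes the subunit of activin E. STC1 and STC2 are the stanniocalcins, glycoprotein hormones. STC2 binds and inhibits the protease PAPPA, and this is not meant to set it apart from STC1. ADM and ADM2 encode adrenomedullin and intermedin, vasodilator peptides that bind CALCRL paired with a RAMP protein. VEGFA drives growth of blood vessels through FLT1 and KDR, and VEGFB binds FLT1. Several of these genes are textbook targets of ATF4, a factor that the integrated stress response induces. ATF4 acts on its targets through C/EBP-ATF elements, and VEGFA and ADM are also classical targets of the hypoxia-inducible factors (HIF).

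Promoter sequences show where such elements lie close to the start of transcription. RefSeq promoter windows (GRCh38.p14) were used for 6 of the 9 genes (GDF15, FGF21, STC2, ADM, ADM2 and VEGFB). The 250 bases before the RefSeq start site were searched on both strands. STC1 was left out of this search by name, and INHBE and VEGFA had no window. The windows of FGF21 and GDF15, with the highest fold changes of the 9, and of the related genes ADM and ADM2, which moved to different degrees, are printed 5′ to 3′ on the gene's strand. Capitals mark matches to the C/EBP-ATF element TGATGNAA and to the HIF element core GCGTG, read on either strand.
FGF21, chr19:48755274-48755523, plus strand: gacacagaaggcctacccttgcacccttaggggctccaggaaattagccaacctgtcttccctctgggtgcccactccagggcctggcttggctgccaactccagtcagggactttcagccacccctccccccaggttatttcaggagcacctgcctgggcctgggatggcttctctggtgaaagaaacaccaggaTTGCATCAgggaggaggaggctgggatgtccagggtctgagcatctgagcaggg
GDF15, chr19:18385908-18386157, plus strand: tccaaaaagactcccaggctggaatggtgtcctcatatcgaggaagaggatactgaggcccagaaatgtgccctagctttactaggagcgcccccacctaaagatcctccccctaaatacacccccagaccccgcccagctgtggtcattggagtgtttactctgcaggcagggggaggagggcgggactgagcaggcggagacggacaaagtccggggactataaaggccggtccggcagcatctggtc
ADM, chr11:10304823-10305072, plus strand: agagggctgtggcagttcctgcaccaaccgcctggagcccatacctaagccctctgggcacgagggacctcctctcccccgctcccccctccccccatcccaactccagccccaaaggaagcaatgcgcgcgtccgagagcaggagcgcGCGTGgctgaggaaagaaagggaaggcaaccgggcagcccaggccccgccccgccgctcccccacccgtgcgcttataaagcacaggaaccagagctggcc
ADM2, chr22:50481293-50481542, plus strand: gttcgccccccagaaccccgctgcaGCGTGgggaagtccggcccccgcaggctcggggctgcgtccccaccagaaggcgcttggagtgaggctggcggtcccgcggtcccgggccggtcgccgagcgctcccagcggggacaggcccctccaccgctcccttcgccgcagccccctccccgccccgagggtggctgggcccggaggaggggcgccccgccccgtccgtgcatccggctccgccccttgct

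Only the FGF21 window of the 6 held TGATGNAA, on the minus strand, from base -54 to base -47 counted back from the start site. The same motif was in 3.15% of 34943 promoter windows of this length. The core GCGTG was in 4 of the 6 windows (STC2, ADM, ADM2 and VEGFB) and in 32.2% of all windows. The other core, ACGTG, the E-box CACGTG, which contains ACGTG, and the cyclic AMP response core TGACGT, which can overlap ACGTG, had no match in the 6 windows and were in 18.5%, 6.32% and 7.09% of all windows. The GC box GGGCGG was in 4 of the 6 (GDF15, ADM, ADM2 and VEGFB) and in 42.5% of all. G and C made up 58.4% (GDF15) to 82.8% (VEGFB) of bases in the 6 windows, above the median of 58% over all windows. The part of this base content in the matches was not tested. A match describes letters only and says nothing of binding, and the first base of the gene model in the count files lies upstream of the RefSeq start for GDF15, STC2 and VEGFB.

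The libraries held 46148701 to 60697602 counts, and the lowest count of any of the 9 genes in a library was 184. Levels are counts per 1000000 (CPM) after TMM normalisation, and a gene is said to rise or fall where edgeR's quasi-likelihood test gave an adjusted p under 0.05 over all 20734 genes tested. Mitochondrial genes took 6.93% to 7.50% of counts with DMSO and 7.88% to 8.66% with GNF5, and the part of this shift in the results was not tested. All 12 neuroendocrine markers, INSM1 and CHGA among them, were detected, with summed levels of 4129 to 4205 CPM with DMSO and 4686 to 4826 with GNF5. Of these 12 genes, 5 rose, 3 fell and 4 did not pass, while 31.0% of all tested genes rose and 30.7% fell. Of the markers of other cells, COL3A1, CD3E, SFTPB and HBB had 0 counts in all 6 libraries. Summed over each list, with DMSO and then GNF5, 7 fibroblast genes had 121.9 to 127.7 and 65.9 to 73.1 CPM, and 5 endothelial genes had 56.2 to 65.6 and 16.5 to 21.2. Those sums were mostly COL1A2 and CLDN5. For 6 leukocyte genes they were 4.62 to 4.93 and 3.24 to 4.07 CPM, for 5 lung epithelium genes 7.95 to 8.73 and 3.05 to 3.68, and for 3 erythroid genes at most 0.159. The part of these genes in the results was not tested.

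With GNF5, 7 of the 9 genes rose and 2 fell. GDF15, FGF21, ADM2 and INHBE rose 5.57-, 5.31-, 4.19- and 3.87-fold, ADM rose 1.68-fold, and STC2 and VEGFB rose 1.11-fold each. STC1 was 6.90-fold lower and VEGFA 1.21-fold lower, against the name of stress-induced factors under which the genes were grouped. The count of 9 called genes is to be read against a background of 61.6% of all tested genes called (31.0% higher, 30.7% lower). In all 9 the values of the groups did not overlap, as was so for 65.9% of tested genes (33.1% with GNF5 higher, 32.8% lower). A called rise of at least 2-fold, seen in 4 of the 9, was seen in 4.95% of tested genes, and a called fall of that size, seen in STC1, in 6.69%. The median log2 fold change of the 9 was 0.75, and that of all tested genes 0.01. In bulk RNA, a change in the share of cells that express a gene and a change in RNA per cell cannot be told apart.

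**Figure D1:**
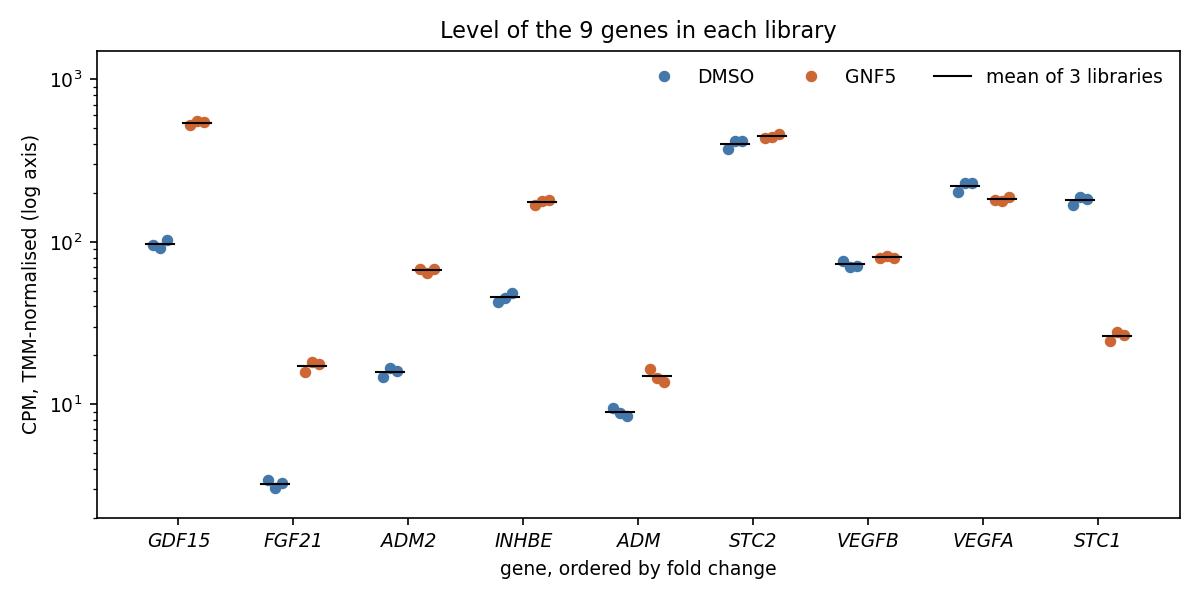
Level of each of the 9 genes in CPM (log axis) in the 3 DMSO libraries (blue) and 3 GNF5 libraries (orange), with the mean of each group as a line. The groups are apart in all 9, widely for GDF15, FGF21, ADM2, INHBE and STC1 and narrowly for STC2 and VEGFB.

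GDF15 (ENSG00000130513, chromosome 19, 18374731 to 18389176, GRCh38, plus strand) had 95.1, 91.9 and 102.9 CPM in DMSO replicates 1, 2 and 3 and 520.2, 550.9 and 543.9 CPM in the GNF5 replicates. Each GNF5 library was thus far above each DMSO library. The log2 fold change was 2.48 ± 0.039 (SE, n = 3 and 3), with a 95% interval of 2.40 to 2.56 and an edgeR adjusted p of 2.26e-27. GDF15 ranked 95th of 20734 genes by log2 fold change and lay at percentile 98.0 of mean level over the libraries of both groups. That mean includes the GNF5 libraries, so the rise itself lifts this percentile.

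FGF21 (ENSG00000105550, chromosome 19, 48755524 to 48758333, plus strand) was the rarest of the 9 with DMSO. Its levels were 3.40, 3.04 and 3.28 CPM with DMSO and 15.9, 18.2 and 17.6 CPM with GNF5. The log2 fold change was 2.41 ± 0.088 (edgeR adjusted p = 2.31e-19), rank 100. The 95% intervals of FGF21 (2.23 to 2.59) and GDF15 overlapped, and the difference between the changes was not tested.

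INHBE (ENSG00000139269, chromosome 12, 57452323 to 57459280, plus strand) went from 42.7, 45.4 and 48.3 CPM with DMSO to 168.5, 178.2 and 181.7 CPM with GNF5. The groups were well separated, at 1.95 ± 0.043 on the log2 scale (edgeR adjusted p = 2.20e-24). An RNA on the opposite strand overlaps 16.4% of its exon bases, had 512 counts in the 6 libraries together, and was counted apart because the counting used strand. INHBC, its neighbour on the chromosome, had 14 counts in all DMSO libraries and 2 in all GNF5 libraries and was not tested.

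The adrenomedullin genes both rose, ADM2 by more. ADM2 (ENSG00000128165, chromosome 22, 50481543 to 50486440, plus strand) had 14.8, 16.8 and 16.1 CPM with DMSO and 67.6, 64.2 and 68.1 CPM with GNF5. Its groups were far apart, at 2.07 ± 0.051 on the log2 scale (edgeR adjusted p = 4.32e-23). ADM (ENSG00000148926, chromosome 11, 10305073 to 10307397, plus strand) had 9.47, 8.80 and 8.43 CPM with DMSO and 16.6, 14.6 and 13.7 CPM with GNF5. The lowest GNF5 library stayed above the highest DMSO library, and the log2 fold change was 0.75 ± 0.08 (edgeR adjusted p = 3.46e-09). ADM had the widest spread of the 9, with a coefficient of variation of 9.76% in the GNF5 libraries.

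The stanniocalcins parted. STC1 (ENSG00000159167, chromosome 8, minus strand) had 169.3, 189.4 and 183.9 CPM with DMSO but 24.4, 27.7 and 26.7 CPM with GNF5. The log2 fold change was -2.79 ± 0.048 (edgeR adjusted p = 1.83e-26), the 115th lowest of 20734, and no other member of the 9 fell by more than 1.21-fold. STC2 (ENSG00000113739, chromosome 5, 173314713 to 173329503, minus strand) had 373.1, 416.4 and 418 CPM with DMSO and 435.8, 441.8 and 462.6 CPM with GNF5. DMSO replicate 1 was the low library, and the other two lay just below the lowest GNF5 library. The log2 fold change of STC2 was 0.15 ± 0.038 (95% interval 0.07 to 0.23, edgeR adjusted p = 0.00118). Without DMSO replicate 1 it was 0.09 (edgeR adjusted p = 0.029), within a range of 4.16e-05 to 0.029 over 12 alternatives.

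The vascular growth factors changed little and in opposite directions. VEGFA (ENSG00000112715, chromosome 6, 43770184 to 43786487, plus strand) had 201.9, 229.3 and 229.1 CPM with DMSO and 181.7, 177.4 and 187.5 CPM with GNF5, so that all GNF5 libraries were lower. Its log2 fold change was -0.27 ± 0.041 (95% interval -0.36 to -0.19, edgeR adjusted p = 1.62e-06). VEGFB (ENSG00000173511, chromosome 11, 64234538 to 64238793, plus strand) had 76.5, 69.9 and 71.2 CPM with DMSO and 79.3, 81.8 and 80.1 CPM with GNF5. DMSO replicate 1 was the high one and still below the GNF5 libraries, and the log2 fold change was 0.15 ± 0.04 (95% interval 0.07 to 0.23, edgeR adjusted p = 0.00231). Against a change of 1.5-fold, STC2, VEGFA and VEGFB did not pass (edgeR glmTreat adjusted p = 1 for each), while the other 6 did, ADM narrowly (adjusted p = 0.0445).

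**Figure D2:**
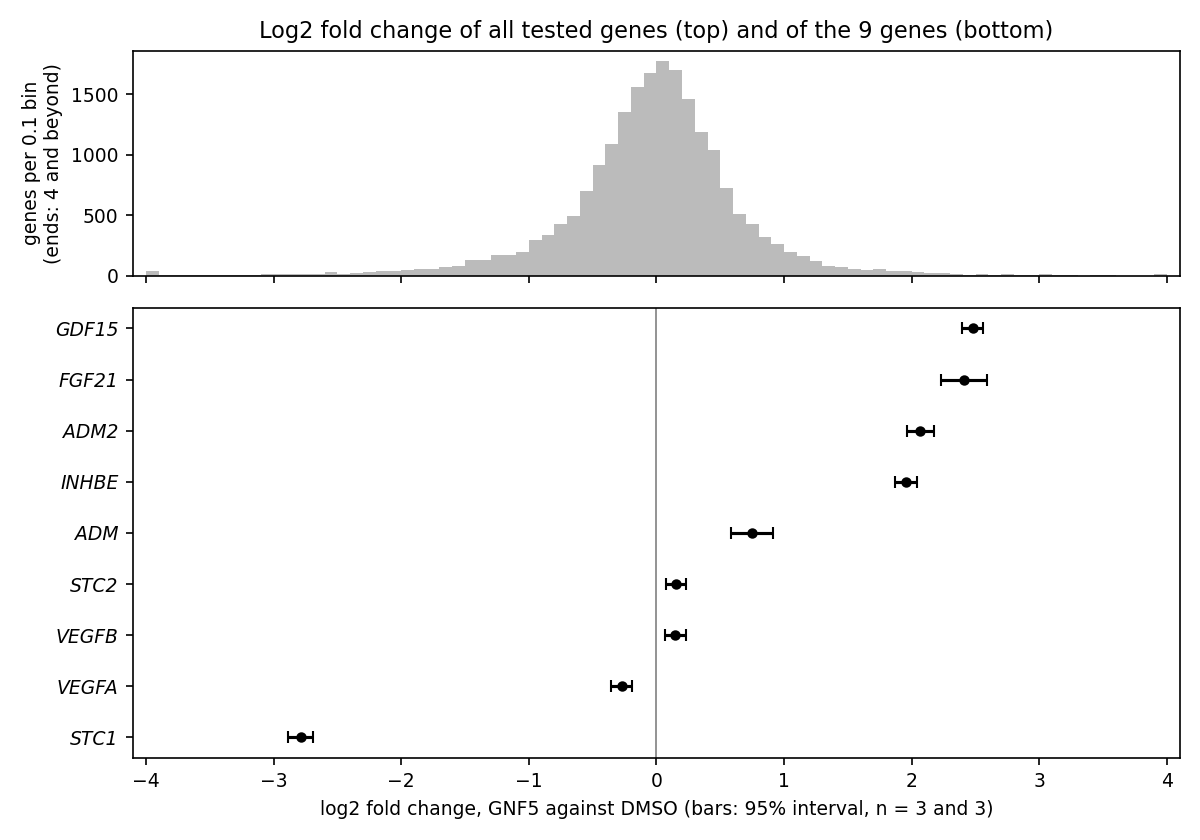
Top, number of genes per 0.1 of log2 fold change (GNF5 against DMSO) over the 20734 tested genes, with values beyond 4 drawn in the end bins; bottom, the log2 fold change of each of the 9 genes with its 95% interval from edgeR. GDF15, FGF21, ADM2 and INHBE lie between 1.95 and 2.48, ADM at 0.75, STC2 and VEGFB at 0.15, VEGFA at -0.27 and STC1 at -2.79.

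Ratios within a library, which do not depend on scaling between libraries, were taken for the related genes as counts per kilobase of exon. The ratio of STC1 to STC2 was 0.673, 0.674 and 0.652 in the DMSO libraries and 0.0831, 0.0928 and 0.0856 in the GNF5 libraries, a shift of -2.94 on the log2 scale. The ratio of ADM to ADM2 was 1.18, 0.964 and 0.967 with DMSO and 0.453, 0.419 and 0.372 with GNF5, a shift of -1.32. STC1 and ADM thus fell behind their relatives. For VEGFA to VEGFB the ratio was 0.282, 0.351 and 0.345 with DMSO and 0.245, 0.232 and 0.251 with GNF5, a shift of -0.42. Groups did not overlap for any of the 3 ratios. Each gave p = 0.1 in a two-sided exact permutation test (0.1 adjusted over the 3 ratios), the smallest p that 3 against 3 libraries allow.

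**Figure D3:**
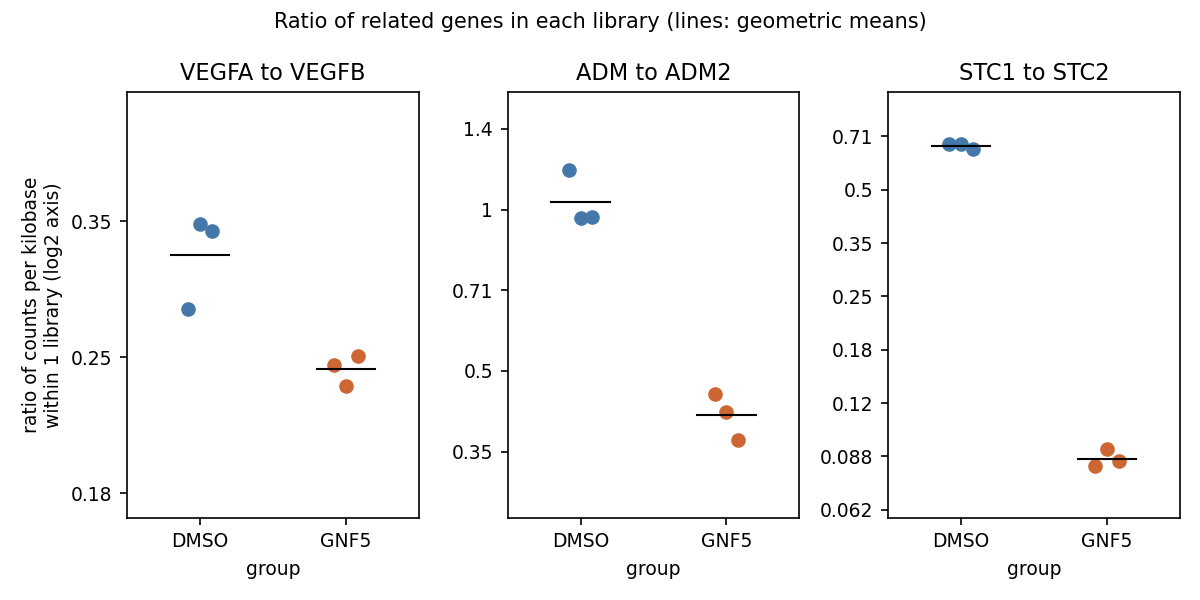
Ratio of counts per kilobase of exon for VEGFA to VEGFB, ADM to ADM2 and STC1 to STC2 within each library (log2 axis, each panel on its own scale), with geometric means as lines. The GNF5 points lie below the DMSO points in each panel, from a geometric mean of 0.666 to 0.087 for STC1 to STC2.

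Compared per length, as transcripts per 1000000 (TPM, mean ± SD over 3 libraries), the order of the genes changed with treatment. With DMSO, STC2 was highest at 217.1 ± 13.1 TPM. VEGFB (155.2 ± 7.86), GDF15 (153 ± 8.29) and STC1 (144.6 ± 8.05) followed, with ranges that overlapped from one to the next. VEGFA (50.4 ± 3.47) and INHBE (49.3 ± 2.83) overlapped, as did ADM (12.7 ± 0.805) and ADM2 (12.2 ± 0.789), and FGF21 was lowest at 7.93 ± 0.448 TPM. With GNF5, GDF15 was highest at 854.3 ± 17 TPM, above STC2 (241.5 ± 6.08), INHBE (191.5 ± 5.54) and VEGFB (172.4 ± 1.90). ADM2 came next (51.5 ± 1.88), then FGF21 (42.3 ± 2.57) and VEGFA (41.8 ± 1.18), which overlapped, then ADM (21.3 ± 2.31) and STC1 (21 ± 1.13), which overlapped too. STC1 thus went from the fourth place to the last. The length used is the union of annotated exons, 14431 bases for VEGFA, whose gene model includes nearly all of its span, so that its TPM is low for its CPM. The models of ADM (2325 bases) and ADM2 (4289 bases) likewise include all or most of their spans. Their TPM, and the size of their ratio within a library, carry the same limit. The 9 genes summed to 802.5 ± 21 TPM with DMSO and 1638 ± 23.7 with GNF5, of which GDF15 made up 19.1% and 52.2%.

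**Figure D4:**
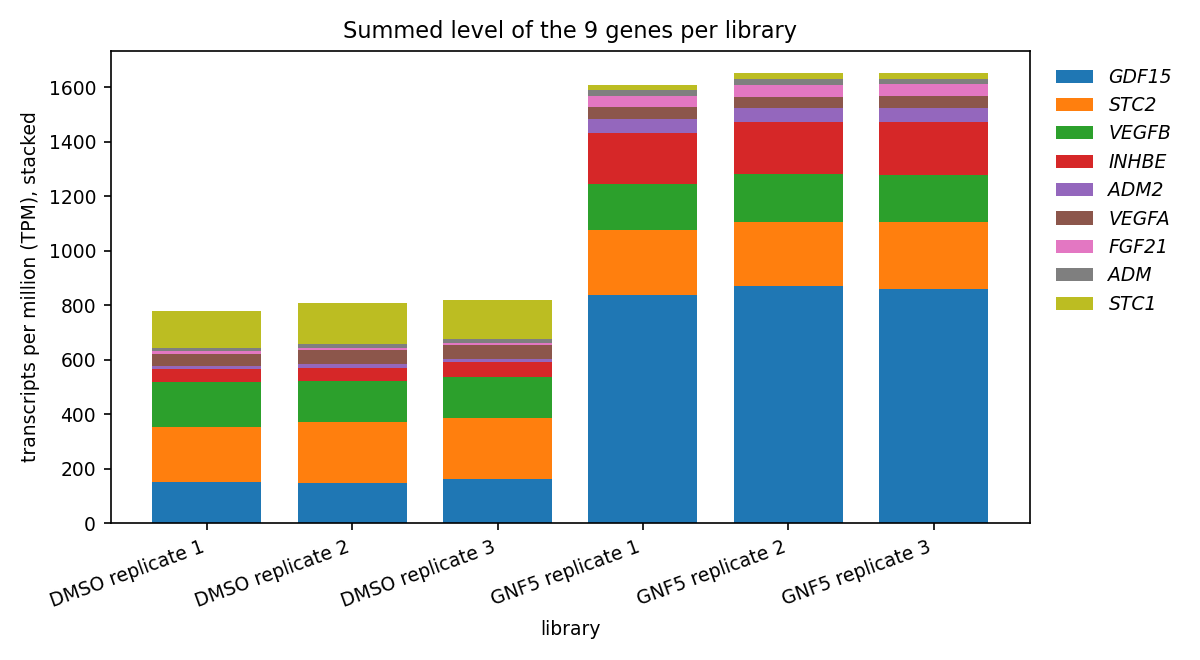
TPM of the 9 genes stacked for each of the 6 libraries. The total is 779.5 to 820.7 TPM in the DMSO libraries and 1610 to 1652 in the GNF5 libraries, where GDF15 forms the largest block and STC1 is reduced to a thin one.

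Receptors and binding partners of the factors were mixed, and several were close to absent in these cells. Of 22 genes listed, 16 were tested, 6 rose and 4 fell, with a median log2 fold change of 0.00. This frequency of calls was near that over all tested genes, of which 31.0% rose and 30.7% fell. GFRAL, the GDF15 receptor, and KDR, the main VEGFA receptor, had 0 counts in all 6 libraries, which allows up to 0.00903 CPM. RET fell from 1.73 ± 0.106 to 0.645 ± 0.0361 CPM. FGFR1 rose from 29.4 ± 1.83 to 48.4 ± 1.61 CPM, whereas KLB, the FGF21 co-receptor, had 3 counts in all with DMSO and 2 with GNF5. FGFR3 and FGFR4 fell (log2 fold changes -0.35 ± 0.077 and -0.48 ± 0.103), and FGFR2 did not pass at 0.326 and 0.305 CPM.

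For the peptides ADM and ADM2, the receptor CALCRL fell from 4.55 ± 0.212 to 2.99 ± 0.196 CPM and its partner RAMP2 rose from 9.60 ± 0.219 to 11.4 ± 1.02 CPM. The RAMP2 call was lost without GNF5 replicate 1 (edgeR adjusted p = 0.0599, within 0.00241 to 0.0599 over its alternatives). RAMP1 had 9.84 and 9.89 CPM, and RAMP3 had 2 counts in each group. The activin receptors ACVR1B and ACVR2B were at log2 fold changes of 0.00 ± 0.038 and 0.01 ± 0.046 and did not pass. ACVR2A rose by 0.41 ± 0.067, and ACVR1C, a receptor of activin E, was at -0.18 ± 0.111 and did not pass. FLT1, the receptor that VEGFA and VEGFB share, had 2 counts in all 6 libraries, and the scavenger receptor ACKR3 had 11 counts with DMSO and 3 with GNF5. The VEGF co-receptor NRP2 rose from 30.6 ± 1.46 to 48.3 ± 0.641 CPM, and NRP1 did not pass (-0.12 ± 0.081). PAPPA, the protease that STC2 inhibits, rose from 0.766 ± 0.0669 to 1.54 ± 0.135 CPM, and PAPPA2 from 0.574 ± 0.0454 to 2.12 ± 0.339 CPM, both at low levels.

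Relatives of the factors were mostly rarer. Of 12 listed, 6 were tested, 2 rose and 2 fell, beside 31.0% and 30.7% of all tested genes. PGF, placental growth factor of the VEGF family, fell from 17.3 ± 1.17 to 3.14 ± 0.361 CPM, or by -2.47 ± 0.093 in log2 terms (edgeR adjusted p = 4.38e-19). VEGFC fell from 1.16 ± 0.0949 to 0.579 ± 0.168 CPM, and VEGFD did not pass at 0.254 and 0.286 CPM. INHBB, the subunit of activin B, rose from 14.0 ± 1.13 to 22.3 ± 0.530 CPM, and FGF19, another endocrine growth factor, from 1.25 ± 0.121 to 2.31 ± 0.113 CPM. INHBA did not pass (-0.24 ± 0.167). CALCA, which encodes calcitonin, and IAPP had 0 counts in all 6 libraries.

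Enzymes that mature these proteins, and their antagonists, moved in both directions. Of 9 processing enzymes and antagonists, 8 were tested, 3 rose and 2 fell. Calls were thus about as frequent as over all tested genes, of which 31.0% rose and 30.7% fell. FURIN, a convertase that cleaves precursors of the TGF-beta family, rose from 42.2 ± 0.759 to 76.7 ± 3.57 CPM. PCSK7 rose by 0.16 ± 0.039 and PCSK6 by 0.23 ± 0.077 on the log2 scale, the latter losing its call without DMSO replicate 1 (edgeR adjusted p = 0.0599) or GNF5 replicate 2 (0.105), within 0.00136 to 0.105 over its alternatives. PAM, which amidates adrenomedullin and other peptides, fell from 421.1 ± 1.53 to 317.9 ± 15.8 CPM. FST, which binds activins, fell from 5.14 ± 0.664 to 2.68 ± 0.164 CPM, and its relative FSTL3 did not pass (0.09 ± 0.091).

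Genes known to act upstream of the factors rose. Of 19 listed, 18 were tested and 16 rose, beside 31.0% of all tested genes, with a median log2 fold change of 0.65. ATF4 had 382.0 ± 7.02 CPM with DMSO and 738.6 ± 5.62 with GNF5. Its partners CEBPB and CEBPG had log2 rises of 1.98 ± 0.061 and 1.30 ± 0.037, and ATF3 one of 1.27 ± 0.048. DDIT3, which encodes the stress factor CHOP, rose from 27.2 ± 1.27 to 145.8 ± 9.59 CPM. Of the sensors and factors of the unfolded protein response, ERN1 rose by 1.73 ± 0.043, ATF6 by 0.99 ± 0.0385 and XBP1 by 0.60 ± 0.032. Among the kinases that start the integrated stress response, EIF2AK3 rose by 0.70 ± 0.052, EIF2AK2 by 0.44 ± 0.043 and EIF2AK4 by 0.22 ± 0.041. EIF2AK1 was at -0.06 ± 0.031 and did not pass, although it did as a lower gene with upper-quartile factors (adjusted p = 0.0193) and with the stricter filter (0.0396), within 0.0193 to 0.284 over all alternatives. PPARA, a known inducer of FGF21 in liver, rose from 10.5 ± 0.531 to 27.9 ± 1.70 CPM. The HIF genes moved little. HIF1A had 152.9 ± 1.07 and 165.4 ± 10.7 CPM, a call lost without DMSO replicate 3 (edgeR adjusted p = 0.0577) or GNF5 replicate 1 (0.111), within 0.00124 to 0.111 over its alternatives. ARNT rose by 0.24 ± 0.04, and EPAS1, with 27 counts with DMSO and 9 with GNF5, was not tested. Its counts were uneven, at 2, 6 and 19 in DMSO replicates 1, 2 and 3 and 7, 0 and 2 in the GNF5 replicates. EGR1 did not pass (0.17 ± 0.13), but it did without GNF5 replicate 1 (edgeR adjusted p = 0.0177, within 0.0177 to 0.924 over its alternatives).

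The 9 genes were then set beside targets of ATF4 and of HIF that are not secreted. Of 23 ATF4 targets, 21 rose and 2 fell, with a median log2 fold change of 0.99, and 11 rose at least 2-fold. Over all tested genes, 31.0% rose, 30.7% fell and 4.95% rose at least 2-fold. SLC7A11, the cystine transporter, PCK2, ATF5 and ASNS, asparagine synthetase, rose by 1.58, 1.37, 1.19 and 1.74 on the log2 scale. For ASNS, 49.3% of exon bases are shared with a second same-strand gene model, so its value is uncertain. The 2 that fell were DDIT4 (-0.79 ± 0.04), which hypoxia also induces, and ALDH18A1 (-0.09 ± 0.036), which lost its call under 5 alternatives (edgeR adjusted p = 0.0596 to 0.124 there, and 0.00938 to 0.124 over all). Of 24 HIF targets, 22 fell and 1 rose, beside 30.7% and 31.0% of all tested genes, with a median of -1.77. LDHA, PGK1, ALDOC and ALDOA, all of glycolysis, fell by 2.54, 1.93, 4.65 and 1.87 on the log2 scale. LDHA and PGK1 have pseudogene copies and 43.3% of the exon bases of ALDOA are shared with another gene model, so these sizes are uncertain. P4HA2, a collagen prolyl hydroxylase, was the 1 that rose (0.77 ± 0.053), and ERO1A, named after its value was seen, did not pass (0.01 ± 0.035).

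GDF15, FGF21, ADM2 and INHBE lay above the median of the ATF4 targets, and ADM, STC2 and VEGFB below it. STC1 lay below the median of the HIF targets, whose highest member was P4HA2 at 0.77. VEGFA at -0.27 lay above the 22 HIF targets that fell. These positions are descriptions, since the genes were chosen with earlier results known.

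**Figure D5:**
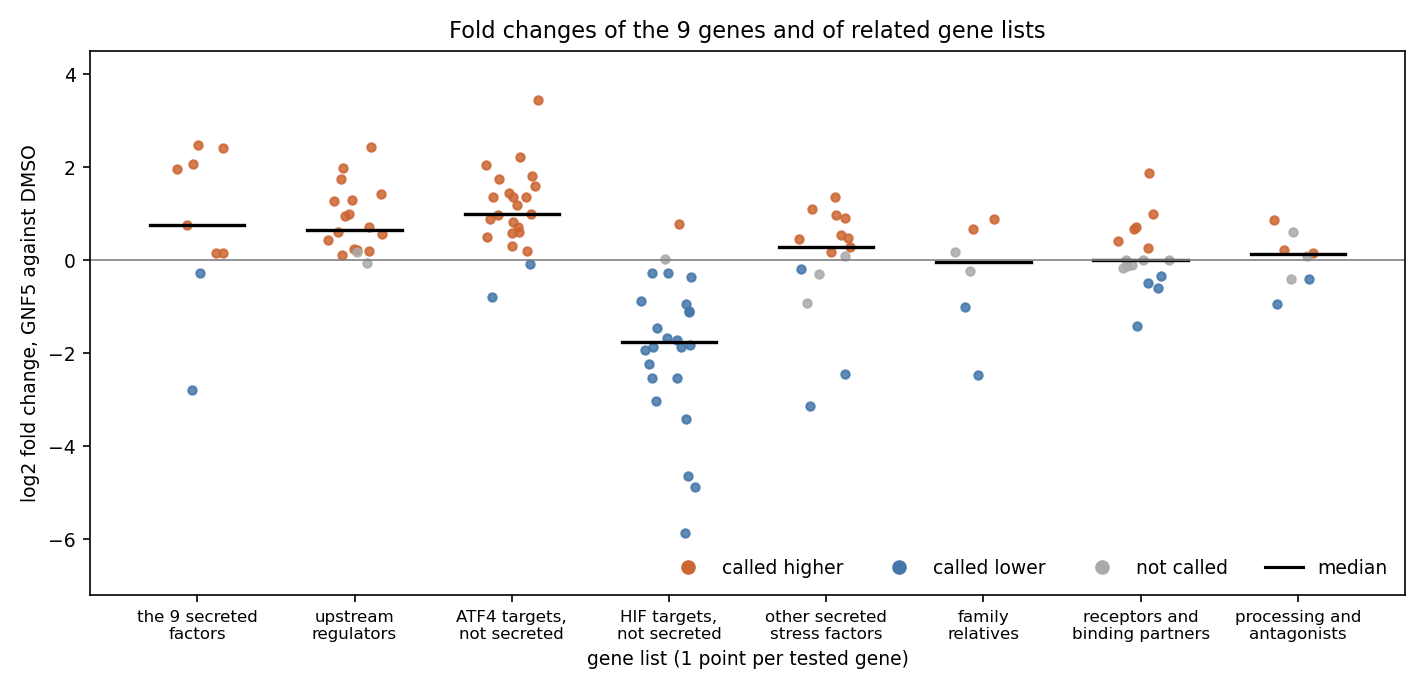
Log2 fold change (GNF5 against DMSO) of each tested gene in the 9 secreted factors and in 7 related lists, coloured by edgeR's call, with the median of each list as a line. Medians are 0.75 for the 9 factors, 0.65 for upstream regulators, 0.99 for ATF4 targets and -1.77 for HIF targets.

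Other secreted stress factors were mixed. Of 22 listed, 15 were tested, 9 rose and 3 fell, beside 31.0% and 30.7% of all tested genes. The median log2 fold change was 0.29. MDK, the growth factor midkine, rose from 47.3 ± 0.221 to 88.7 ± 5.63 CPM, PTN, pleiotrophin, by 0.48 ± 0.069 on the log2 scale, and MANF and CRELD2, secreted proteins of the endoplasmic reticulum stress response, by 0.45 ± 0.044 and 0.29 ± 0.044. ANGPTL4, LIF and TGFB1 fell. ANGPTL4, a target of HIF and PPAR factors, had 90 counts in all with DMSO and 9 with GNF5, and LIF had 85 and 14, so the sizes of their falls are uncertain. TGFB1 fell from 23.6 ± 1.71 to 20.7 ± 0.867 CPM, a call lost without DMSO replicate 3 (edgeR adjusted p = 0.057, within 0.00108 to 0.057 over its alternatives). IL6 had 1 count in all 6 libraries, and IGFBP1, LCN2 and NPPB had 0.

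Likeness of pattern was measured over the 6 libraries as the root mean square difference of log2 CPM centred on the DMSO mean, among 13238 genes. As the libraries form only a DMSO and a GNF5 group, a small difference mostly means a similar fold change. Shared control of such genes was not tested. Nearest to GDF15 were ASS1, argininosuccinate synthase (difference 0.067), FGF21 (0.0771) and DDIT3, the stress factor CHOP (0.112). ASS1 went from 106.8, 107.8 and 118.9 CPM with DMSO to 660, 657.5 and 646 with GNF5, though it has many pseudogene copies and its level is uncertain. Nearest to VEGFA were INTS3, a subunit of Integrator (0.0301), PCDH19, a protocadherin (0.0303), and CASZ1, a zinc finger factor (0.033). INTS3 went from 74.5, 79.9 and 79.7 CPM to 64.9, 63.7 and 65.6, a log2 fold change of -0.27 ± 0.04.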

How the data were processed

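The files hold raw counts per gene as deposited by the authors, not normalised. Per the file headers, read pairs were counted with featureCounts 1.6.1 over exons summed by gene, on the reverse strand (setting 2), with the Ensembl release 101 annotation of GRCh38. In the default settings, reads that map to several places or overlap several genes are left out. Per the submitters' processing notes, STAR, HTSeq, Trim Galore and DESeq2 were used and the build was GRCh37, with no version or role given. The headers were followed for the counter and coordinates, and the build of the alignment was not settled.

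Symbols came from a gene name table that covered 60401 of 60671 IDs. Groups came from the treatment labels and replicate numbers from the titles. GNF5 was compared with DMSO by edgeR 4.0.16 in R 4.3.3 (quasi-likelihood, robust, TMM, default expression filter, no covariate, Benjamini-Hochberg adjustment). The SE is the log2 fold change over the square root of F. DESeq2 1.42.0 was an alternative, as were other factors and filters, a 1.5-fold test, a replicate block and leaving out each library. A fitting script was tested on simulated counts. Replicates were not copies of one library: chi-square values per degree of freedom between them were 3.18 to 8.76. Limits set by 3 counts cover counting error only.

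The members, lists and tests were chosen with earlier results of these data known. Lists were described by counts and medians, with no set test. The text names the 9 genes, any gene of the receptor, relative, processing and regulator lists, and, for the other lists, up to 4 called genes with the lowest p-values and a mean log2 CPM of at least 1, plus those called against their list's majority. It also names the 3 genes most like GDF15 and VEGFA. Other low-count genes were named after their values were seen. Values of some genes of these lists are not reported here.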

Additional observations from a re-analysis of the deposited data

How the results depend on the processing

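Each of the 9 genes kept its direction and its call at an adjusted p under 0.05 with DESeq2 size factors, upper-quartile factors, DESeq2's own test, no filter, the stricter filter (CPM of at least 1 in 3 libraries), the replicate block, and without each library in turn. Against a 1.5-fold change (edgeR glmTreat), 5 of the 9 were called higher and 1 lower, and STC2 (0.15), VEGFA (-0.27) and VEGFB (0.15) lost their calls. Over all genes that test called 1240 higher and 1560 lower. In the lists it called, higher and lower, 2 and 1 receptors, 0 and 1 relatives, 1 and 1 processing genes, and 9 and 0 regulators. It also called 1 and 2 other secreted factors, 16 and 1 ATF4 targets, and 1 and 18 HIF targets. Of the relatives, 2 were higher at an unadjusted p under 0.05 of this 1.5-fold test. DESeq2's own test, which is against no change, also called 2 relatives higher. The ATF4 targets called lower were also 1 with no filter and with the replicate block, and 1 to 2 without each library. The stricter filter called 1 other secreted factor lower, since fewer genes were tested, and 1 regulator lower, as upper-quartile factors did (1).

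Replicate numbers are shared by the groups, but same-numbered libraries did not deviate together (correlations from -0.103 to 0.00238 over 3 pairs), so the numbers were not taken to pair the libraries. With the replicate block, 6279 genes were called higher and 6196 lower, against 6426 and 6356. The block gave log2 fold changes of 2.48 for GDF15, 2.41 for FGF21 and -2.78 for STC1. The 3 ratios of related genes kept their direction when any library was left out, ranging from -2.98 to -2.90 for STC1 to STC2, -1.39 to -1.22 for ADM to ADM2 and -0.52 to -0.36 for VEGFA to VEGFB. With 3 libraries a group, p-values of these ratios cannot fall below 0.1.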
